A study of Arabidopsis thaliana with 6 samples.

Results

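The genes described here are the MYB-domain genes of Arabidopsis thaliana outside the known stamen regulators, measured in closed flower buds. They are the entries of the deposited count table whose transcription factor family field starts with MYB, less 11 listed loci, which are known regulators of the tapetum, late stamens, sperm cells and flavonols together with MYB51 of indole glucosinolate synthesis. There were 191 such genes among 33037 features, out of 202 with a MYB entry. The family field names a DNA-binding domain, so the group is wider than the classical MYB factors. Beside the R2R3 MYBs it holds golden2-like (GARP) genes such as PHR1, GPRI1, PCL1 and BOA, the ADA2 coactivator subunits and telomere-binding proteins. It also misses some genes known as MYBs: 29 genes of the role lists used below, LHY, AS1 and MYB33 among them, carry no MYB entry in that field.

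RNA was sequenced from closed buds of plants labelled naa50-1 and of wild-type plants, with 3 biological replicates of each genotype and 6 libraries in all. NAA50 encodes the catalytic subunit of an N-terminal acetyltransferase, and the title of the study ties it to the breakdown of the tapetum, the anther layer that feeds the pollen. The sources used here do not give the kind of allele that naa50-1 is, the age of the plants or how many plants made up a sample.

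MYB factors bind DNA through repeats of a helix-turn-helix domain. Plants have expanded the form with a pair of repeats, R2R3, into a large family whose members set the fate of single cell types and switch on branches of secondary metabolism. Genes with a single repeat include core parts of the circadian clock. In anthers, MYB factors act in the tapetum, in the wall layer that opens the anther, and in the pollen itself.

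Library totals lay between 19727584 and 20813563 counts, and the MYB-domain genes took 0.233% to 0.274% of them. NAA50 itself had 49330, 54077 and 61988 counts in the libraries labelled naa50-1, against 552, 571 and 461 counts in wild type. That is a 102-fold difference (log2 fold change 6.67, SE 0.19, edgeR quasi-likelihood adjusted p = 6.5e-08). Counts alone do not show whether the gene still works in these plants, which was not tested. The deposited files do not say which part of the locus these reads cover, so the directions below are those of the libraries labelled naa50-1 relative to wild type. Floral organ identity genes were present in all libraries, with 0 of 12 past the threshold. Mature pollen markers were lower as a group: 15 of 18 tested were lower, and their summed level was 88.2 to 89.9 CPM (counts scaled to library size) in libraries labelled naa50-1, against 920 to 1268 CPM in wild type. ANX2, SYP125, RBOHH and RBOHJ of that list had no count in any library labelled naa50-1. Of the tapetum markers, 14 of 16 did not pass, CEP1, a tapetal protease, was higher and GRP17, a pollen coat protein gene, was lower. Because whole buds were sequenced, fewer cells of a type and less RNA per cell cannot be told apart.

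Of the 146 MYB-domain genes that had enough counts to test, 7 passed the threshold of an adjusted p of 0.05. Higher in libraries labelled naa50-1 were MYB15, a regulator of defence lignin and of the cold response, MYB47, and MYB94, an activator of cuticular wax synthesis. Lower were BOA, a GARP relative of the clock gene LUX, MYB81, a microspore regulator, AT5G56840, and MYB70, a relative of the stress regulator MYB44. These 7 are 4.79% of the tested MYB-domain genes, while 9.53% of all 21196 genes tested passed (3.94% higher and 5.59% lower). Among the MYB-domain genes 2.05% were higher and 2.74% were lower.

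The median log2 fold change of the tested members was 0.05, against -0.01 over all genes. The median size of the change was 0.18 in members and 0.16 over all genes. Without adjustment, 28 members (19.2%) had a p under 0.05, and so did 19.2% of all genes. The 3 libraries of one genotype all lay above the 3 of the other for 30 members (20.5%), against 24.9% of all genes, and 4 members passed with at least a 2-fold change (2.74%, against 7.42%). On counts simulated with the means and library sizes of these data, the edgeR test recovered 20.9% of 1.5-fold, 76.1% of 2-fold and 93.9% of 4-fold changes. Most 1.5-fold changes were thus missed in that setting. Only 66 or 67 of 21000 genes were changed at each size, a smaller share than the 9.53% called in the data. The changed genes left out the lowest counts, and depth was not varied, so the rates are no estimate for the members.

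**Figure D1:**
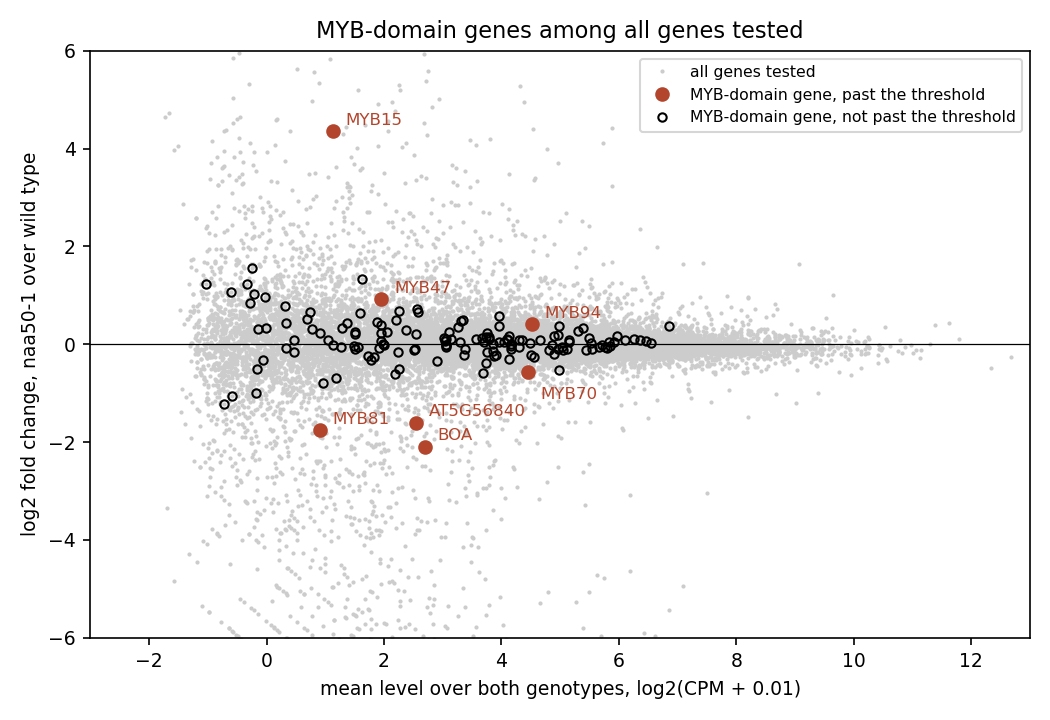
Each point is a gene tested, with its mean level over both genotypes on the x axis (log2 of CPM plus 0.01) and its fitted log2 fold change, naa50-1 over wild type, on the y axis. Red points are the 7 MYB-domain genes past the threshold, open circles the other tested MYB-domain genes and grey points all genes tested, of which 346 lie outside the drawn range. Most open circles sit close to 0.

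The 146 tested MYB-domain genes had a median level of 5.38 FPKM (deposited values, scaled for transcript length and library size), against 11.2 FPKM over all genes tested. Of the 191 members, 21 averaged at least 20 FPKM, 110 lay between 1 and 20 FPKM, and 60 lay below 1 FPKM. The 45 members with too few counts to test include 9 with no count in any library, among them MYB5, MYB9, MYB58 and MYB76. MYB5 shares 1337 of its 1337 exonic bases with M3KE1 on the opposite strand. MYB58 shares 1335 of 1335 with AT1G16489, and MYB9 shares 1207 of 2036 with DOT2, both also on the opposite strand. Since the strand setting of the counting is not given, a count of 0 does not show that these 3 genes are silent.

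None of the 6 most abundant members passed the threshold. AT1G19000 averaged 49.8 ± 2.47 FPKM in libraries labelled naa50-1 and 47.1 ± 2.27 FPKM in wild type (SD, n = 3 each, as for all means here). MYB16, which shapes petal epidermal cells and their cuticle, averaged 45.8 ± 5.15 FPKM in libraries labelled naa50-1 and 42.6 ± 0.757 FPKM in wild type. Then came CCA1, a clock gene described below, followed by UNE16 with 41.6 ± 8.15 FPKM in libraries labelled naa50-1 and 42.8 ± 1.40 FPKM in wild type. MYB4, a repressor of phenylpropanoid synthesis, averaged 38.2 ± 7.29 FPKM in libraries labelled naa50-1 and 36.7 ± 4.74 FPKM in wild type, and GPRI1, a regulator of chloroplast development also known as GLK1, averaged 38.2 ± 5.62 FPKM in libraries labelled naa50-1 and 33.7 ± 3.12 FPKM in wild type. The fitted log2 fold changes of the 6 ran from -0.04 to 0.38 (smallest edgeR adjusted p = 0.528). Neighbours in this order differ by less than the spread between replicates. AT1G19000 shares 71 exonic bases on the same strand with MYOB5, which had 9, 1 and 4 counts in libraries labelled naa50-1 and 57, 192 and 127 counts in wild type.

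**Figure D2:**
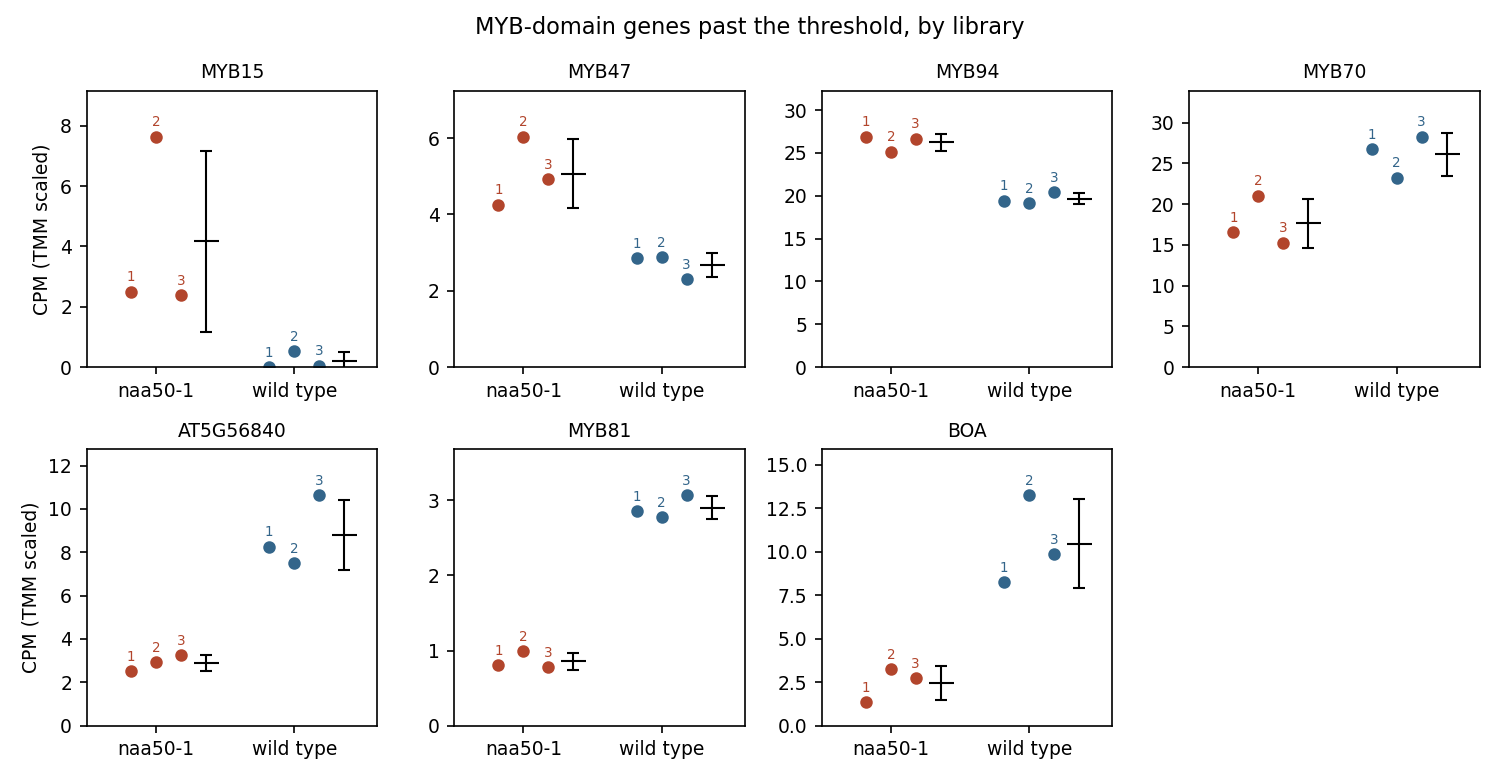
Scaled CPM of the 7 MYB-domain genes past the threshold, with 1 point for each library, its replicate number above it, and the mean with its SD to the right. Libraries labelled naa50-1 are red and wild-type libraries blue. The genotypes do not overlap in any panel, and MYB15 runs from 2.39 to 7.64 CPM in libraries labelled naa50-1.

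Among the MYBs of pollen and the male gametophyte, all 3 tested members were measured lower and 1 passed. MYB81 (AT2G26960, chr2:11506065-11507426, minus strand), a GAMYB-like factor that microspores need to enter their first mitosis, had 0.802, 0.990 and 0.779 CPM in libraries labelled naa50-1, against 2.85, 2.78 and 3.07 CPM in wild type. The ranges are far apart, and both genotypes vary little among themselves. MYB81 was 3.36-fold lower in libraries labelled naa50-1 (log2 fold change -1.75, SE 0.29, edgeR adjusted p = 0.00317), and it passed under all 13 alternatives. Its counts were small, 16, 21 and 16 in libraries labelled naa50-1 against 57, 57 and 60 in wild type. The summed pollen markers given above moved the same way, and their part in this difference was not tested.

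The other GAMYB-like genes did not pass. MYB101, which acts with MYB97 and MYB120 in the pollen tube, had 8.82, 8.82 and 13.1 CPM in libraries labelled naa50-1, against 16.9, 13.5 and 15.9 CPM in wild type. The ranges do not overlap, and the log2 fold change was -0.59 (SE 0.19, edgeR adjusted p = 0.0930). MYB65, which acts with MYB33 in anther development, had a log2 fold change of -0.21 (adjusted p = 0.586). MYB33, outside the family field, had one of -0.09 (adjusted p = 0.80). MYB97 and MYB120 had at most 7 counts in any library and were not tested. Whether MYB81 differs in its response from MYB101 or MYB65 was not tested.

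GAMYB transcripts are known targets of the microRNA miR159, so the pairing sites were read from the TAIR10.1 reference. They show which members carry one within a set score limit. The first line is the mature miR159a (chr1:27713234-27713254, minus strand) with its seed, bases 2 to 8, in capitals. The lines after it are sites in coding sequence, written as DNA in the sense of the gene with the bases that form Watson-Crick pairs in capitals, and with mismatches and G:U pairs in lower case.
miR159a: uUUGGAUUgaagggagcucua
MYB101 site: TAGAGCTtCCTTCAAaCCAAA
MYB65 site: TgGAGCTCCCTTCAtTCCAAt
The sites lie at chr2:13783168-13783188 on the minus strand in MYB101 and at chr3:3604151-3604171 on the plus strand in MYB65. A mismatch was scored 1 and a G:U pair 0.5, doubled at bases 2 to 13 of the microRNA, and sites up to a score of 4 were kept. MYB101 scored 2.5 and MYB65 scored 3.5, and 8 of 31346 genes held such a site. The best matches in MYB81 and MYB120 scored 4.5 and that in MYB97 scored 5.0, so these genes stood outside this limit. A score outside the limit does not show that a gene lacks a site. A match of letters is a description and does not show that the site is used in these buds.

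Of the anther wall and tapetum MYBs 0 of 4 passed, with log2 fold changes from 0.04 to 0.10. MYB26, which drives the wall thickening that lets anthers open, averaged 9.08 ± 1.33 CPM in libraries labelled naa50-1 and 8.47 ± 0.759 CPM in wild type (edgeR adjusted p = 0.845). MYB99, a tapetal gene of the anther phenylpropanoid network, averaged 12.3 ± 2.14 CPM in libraries labelled naa50-1 and 11.5 ± 5.73 CPM in wild type. MYB32 and MYB4, both repressors of phenylpropanoid genes, averaged 16.7 ± 1.6 and 58.2 ± 11.2 CPM in libraries labelled naa50-1, against 16.2 ± 1.56 and 56.1 ± 7.56 CPM in wild type. The secondary wall MYBs likewise had 0 of 12 past the threshold. MYB83, a master switch of secondary walls, had a log2 fold change of 1.24 (SE 0.50, edgeR adjusted p = 0.195) on 14, 36 and 19 counts in libraries labelled naa50-1 against 14, 6 and 8 counts in wild type. Its partner MYB46 had a log2 fold change of 0.00 (adjusted p = 0.998). Among secondary wall pathway genes such as cellulose synthases and laccases, 0 of 20 tested passed at the adjusted threshold, with a median log2 fold change of -0.01.

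Of the stress, defence and abscisic acid MYBs, 2 of 15 tested members were higher and 1 was lower. Over all genes tested, 3.94% were higher and 5.59% were lower. The median log2 fold change of the list was 0.31, against 0.05 over the tested members and -0.01 over all genes. The list was chosen with earlier results of these data known, and a shift of the list was not tested. MYB15 (AT3G23250, chr3:8309209-8310910, plus strand) had 50, 162 and 49 counts in libraries labelled naa50-1, against 0, 11 and 1 counts in wild type. It was close to absent from 2 of the 3 wild-type libraries, and replicate 2 was the highest within each genotype. MYB15 averaged 4.18 ± 3.0 CPM in libraries labelled naa50-1 and 0.196 ± 0.296 CPM in wild type, which is 20.4-fold higher (log2 fold change 4.35, SE 0.85, edgeR adjusted p = 0.00872). It passed under all 13 alternatives with an adjusted p between 0.00172 and 0.0440. The size of the fold depends on the few wild-type counts: it was 7.06 on the log2 scale without wild-type replicate 2, against 3.58 without naa50-1 replicate 2. MYB13, its close relative, averaged 10.7 ± 1.03 CPM in libraries labelled naa50-1 and 8.45 ± 0.416 CPM in wild type and did not pass (log2 fold change 0.35, adjusted p = 0.247). MYB14, the third gene of this clade, had at most 7 counts in any library.

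MYB47 (AT1G18710, chr1:6450585-6453263, plus strand) had 4.26, 6.04 and 4.92 CPM in libraries labelled naa50-1, against 2.85, 2.87 and 2.30 CPM in wild type. The ranges do not overlap, and it was 1.89-fold higher (log2 fold change 0.92, SE 0.24, edgeR adjusted p = 0.0399). The call is close to the threshold: without any 1 library other than naa50-1 replicate 1 the adjusted p was 0.0643 to 0.153. Its relative MYB95 averaged 9.97 ± 0.806 CPM in libraries labelled naa50-1 and 9.66 ± 1.07 CPM in wild type (adjusted p = 0.929). MYB95 shares 523 of its 1429 exonic bases with AT1G74440 on the opposite strand. AT1G74440 had 193, 311 and 177 counts in libraries labelled naa50-1, against 156, 125 and 110 counts in wild type. Since the strand setting of the counting is not given, the level of MYB95 is uncertain.

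MYB70 (AT2G23290, chr2:9904506-9906032, minus strand), of the MYB44 clade that acts in abscisic acid and auxin responses, was the stress-list gene that was lower. It had 16.6, 21.0 and 15.3 CPM in libraries labelled naa50-1, against 26.8, 23.2 and 28.3 CPM in wild type, 1.48-fold lower (log2 fold change -0.56, SE 0.15, edgeR adjusted p = 0.0393). The genotypes came within about 2 CPM of each other at replicate 2. Without replicate 1 or 3 of either genotype the adjusted p was 0.113 to 0.141. The other genes of the clade did not pass: MYB73 had a log2 fold change of 0.08, MYB44 of 0.05 and MYB77 of 0.37 (edgeR adjusted p = 0.860, 0.893 and 0.287). The difference between MYB70 and these relatives was not tested.

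**Figure D3:**
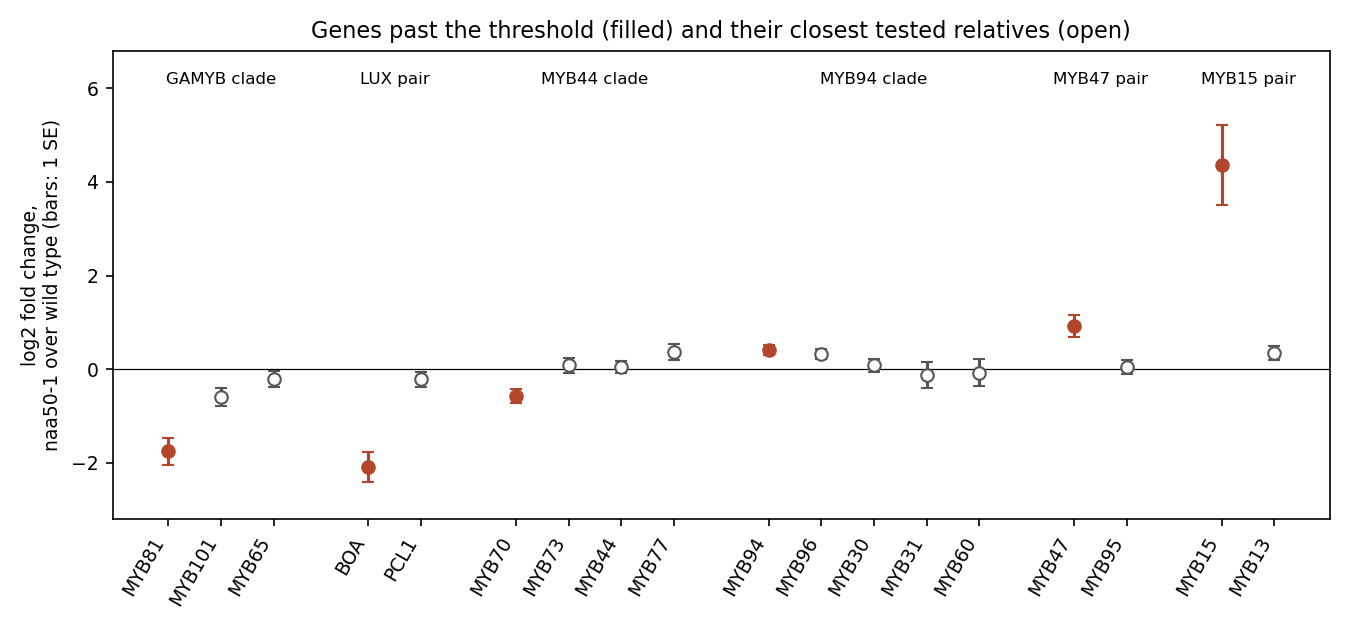
Fitted log2 fold change, naa50-1 over wild type, with bars of 1 SE, for 6 of the 7 genes past the threshold (filled) and their tested close relatives (open), grouped by clade. The open points all lie between -0.59 and 0.37, nearer to 0 than the filled point of their clade.

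Of the cuticle, wax, suberin and Casparian strip MYBs, 1 of 8 tested was higher. MYB94 (AT3G47600, chr3:17539289-17541307, minus strand) had 26.9, 25.1 and 26.7 CPM in libraries labelled naa50-1, against 19.4, 19.1 and 20.4 CPM in wild type. The replicates of each genotype lie close together, and MYB94 was 1.33-fold higher (log2 fold change 0.42, SE 0.10, edgeR adjusted p = 0.0318). The call depends on all 6 libraries: the adjusted p was 0.0627 to 0.103 when any 1 was left out, while the log2 fold change stayed between 0.41 and 0.45 in 5 of these and was 0.40 without wild-type replicate 2. MYB96, its partner in wax synthesis under drought, had 51.9, 45.8 and 42.9 CPM in libraries labelled naa50-1, against 40.7, 34.0 and 37.4 CPM in wild type. These ranges do not overlap either, and the log2 fold change was 0.33 (SE 0.11), but the gene did not pass (edgeR adjusted p = 0.116). MYB30, MYB31 and MYB60 of the same clade had log2 fold changes of 0.08, -0.12 and -0.07, with adjusted p of 0.830, 0.888 and 0.941 in the same fit.

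Since MYB94 and MYB96 had their differences in the same direction, the 250 bases before their starts were compared in TAIR10.1. They share a stretch of 65 bases with 58 identical, shown on the strand of each gene with identical bases in capitals.
MYB94 stretch: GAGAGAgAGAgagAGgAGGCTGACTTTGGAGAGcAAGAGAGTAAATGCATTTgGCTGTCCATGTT
MYB96 stretch: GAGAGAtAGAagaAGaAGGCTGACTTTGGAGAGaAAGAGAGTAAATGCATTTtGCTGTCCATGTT
The stretch lies at chr3:17541449-17541513, 206 to 142 bases before the start of MYB94, and at chr5:25081142-25081206, directly before the start of MYB96. The longest identical run, 18 bases, was in 0 other promoters of the 27419 read. A run of that length is rarely repeated in any case, so this says little about the stretch. The W-box core TTGAC, the letters bound by WRKY factors, was searched on either strand. The MYB94 window held 1 match. At least 1 match was in 44.9% of all such windows and 38.6% of those of the MYB-domain genes. The core was in the window of no other gene of the 7 past the threshold.

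Of the 19 tested genes that carry a golden2-like (GARP) name, BOA was lower and the other 18 did not pass. Unnamed members of this type are not among the 19. BOA (AT5G59570, chr5:24003888-24007844, plus strand) had 1.35, 3.25 and 2.73 CPM in libraries labelled naa50-1, against 8.25, 13.3 and 9.87 CPM in wild type. The highest value in libraries labelled naa50-1 is well below the lowest in wild type. BOA was 4.26-fold lower (log2 fold change -2.09, SE 0.32, edgeR adjusted p = 0.00181), and it passed under all 13 alternatives. The locus overlaps UGT76E1 on the opposite strand over 1679 of its 3655 exonic bases. UGT76E1 is listed at 0 in all 6 libraries, and since the strand setting of the counting is not given in the sources used here, reads of this overlap cannot be assigned to one gene with certainty.

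PCL1, the evening complex gene better known as LUX and the closest relative of BOA, did not pass. It had 12.1, 14.3 and 15.4 CPM in libraries labelled naa50-1, against 18.1, 13.4 and 17.0 CPM in wild type, and the ranges overlap (log2 fold change -0.21, SE 0.16, edgeR adjusted p = 0.562). It shares 698 exonic bases with AT3G46650 on the opposite strand. PCL1 is known to be repressed by morning clock factors through evening elements, so the 250 bases before each start in TAIR10.1 are shown on the gene's own strand. Capitals mark the evening element AAATATCT and the G-box CACGTG on either strand.
BOA promoter: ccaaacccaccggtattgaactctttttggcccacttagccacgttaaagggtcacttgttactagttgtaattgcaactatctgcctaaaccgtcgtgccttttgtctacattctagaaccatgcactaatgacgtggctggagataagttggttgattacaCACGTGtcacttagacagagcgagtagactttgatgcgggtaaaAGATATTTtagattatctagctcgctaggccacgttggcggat
PCL1 promoter: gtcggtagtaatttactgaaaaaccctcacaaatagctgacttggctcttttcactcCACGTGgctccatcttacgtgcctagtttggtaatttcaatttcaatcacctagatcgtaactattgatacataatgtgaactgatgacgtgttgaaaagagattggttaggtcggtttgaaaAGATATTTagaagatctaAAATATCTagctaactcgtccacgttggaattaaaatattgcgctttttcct
These windows are chr5:24003638-24003887 and chr3:17182792-17183041. BOA holds 1 evening element and PCL1 holds 2, and each holds 1 G-box. Evening elements were in 4.79% of all such windows and 6.35% of those of the MYB-domain genes, and G-boxes in 6.48% and 11.6%.

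Of the circadian MYB-related genes matched by name, 0 of 7 tested members passed the threshold. In some of them single libraries stood far from the others. RVE3 of that list matched no gene by name, so a member that carries another name can be missing from these 7. CCA1, a morning factor of the clock, had 84.8, 34.9 and 24.7 FPKM in libraries labelled naa50-1, against 33.2, 44.4 and 33.0 FPKM in wild type. A single library, naa50-1 replicate 1, lies above all others. The log2 fold change of 0.38 (SE 0.38, edgeR adjusted p = 0.691) became -0.30 without it. LHY, its partner outside the family field, showed the same library on top, with 493, 176 and 90.6 CPM in libraries labelled naa50-1 against 162, 246 and 175 CPM in wild type (log2 fold change 0.39, adjusted p = 0.766). RVE2 had the smallest p of the group, with 23.0, 13.5 and 20.1 FPKM in libraries labelled naa50-1 against 9.66, 18.1 and 10.1 FPKM in wild type (log2 fold change 0.58, SE 0.27, edgeR adjusted p = 0.294). Without wild-type replicate 2 its adjusted p was 0.0371. Of the clock partner genes, such as the pseudo-response regulators, GI and ELF3, 0 of 14 passed. The sampling time of day is not given in the sources used here.

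**Figure D4:**
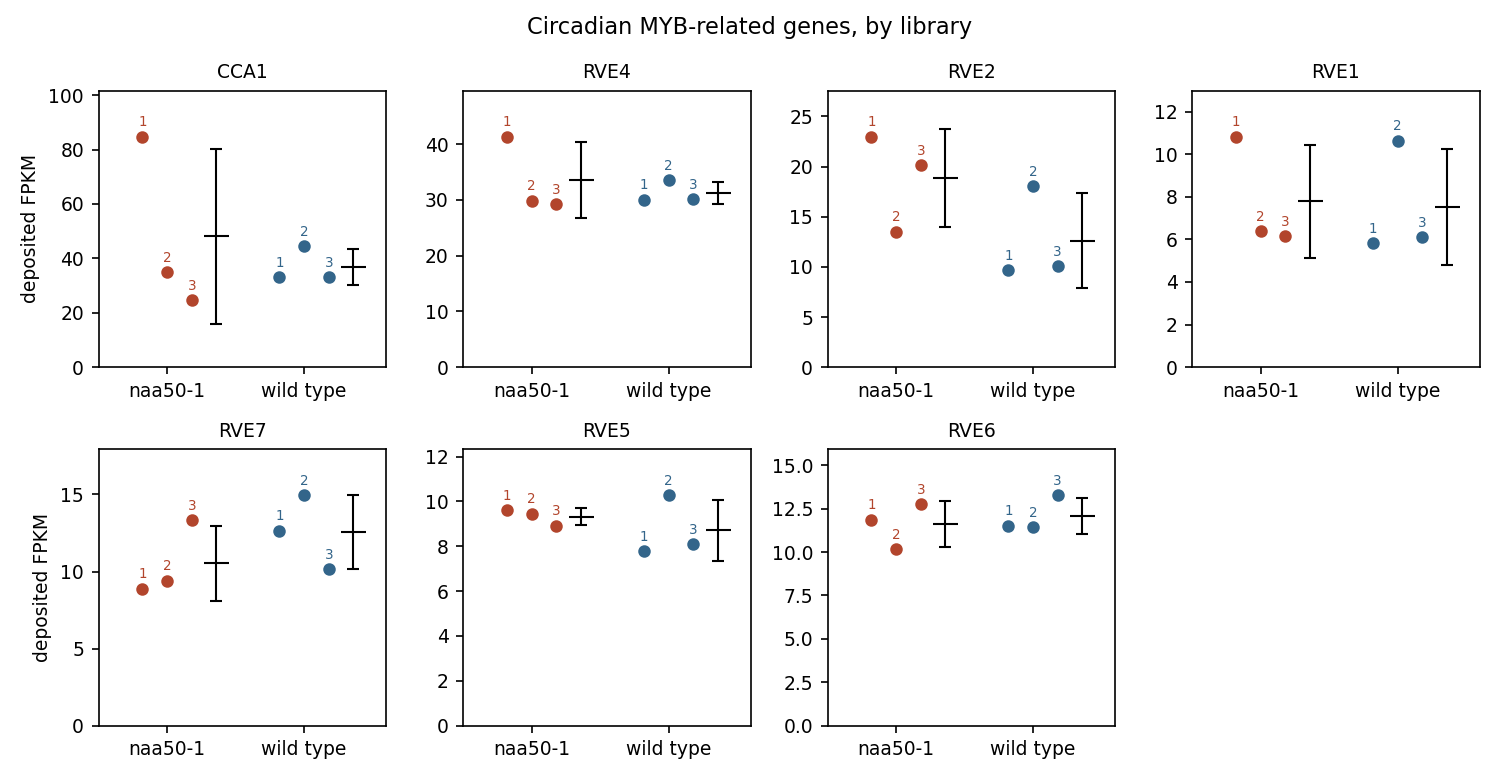
Deposited FPKM of the 7 tested circadian MYB-related genes matched by name. Each library has 1 point with its replicate number above it, and the mean with its SD is to the right. Libraries labelled naa50-1 are red and wild-type libraries blue. For CCA1, RVE4, RVE2, RVE1 and RVE5 the highest library labelled naa50-1 is replicate 1, and the highest wild-type library is replicate 2.

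The MYBs of anthocyanin, proanthocyanidin and phenylpropanoid synthesis matched by name had 0 of 8 tested members past the threshold. Their log2 fold changes ran from -0.31 to 1.33. MYBD of that list matched no gene by name, so a member that carries only a locus number can be missing from these 8. MYB90, an activator of anthocyanin synthesis, had 5.91, 5.57 and 1.75 CPM in libraries labelled naa50-1, against 0.70, 2.0 and 2.56 CPM in wild type. Its ranges overlap at naa50-1 replicate 3 (log2 fold change 1.33, SE 0.53, edgeR adjusted p = 0.191). MYB75 and MYB113, its close relatives, had log2 fold changes of 0.97 and 0.84 on at most 30 counts in any library and did not pass either (adjusted p = 0.248 and 0.412).

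The 10 anthocyanin branch genes tested are enzymes of the branch and its partner regulators such as TT8, GL3 and TTG1. Of these, 3 were higher and 0 lower, while 3.94% of all genes tested were higher and 5.59% lower. Their median log2 fold change was 0.60, against -0.01 over all genes. This list too was chosen with earlier results of these data known, and a shift of it was not tested. DFRA, dihydroflavonol reductase, had 12.7, 12.3 and 4.04 CPM in libraries labelled naa50-1, against 0.450, 1.36 and 2.92 CPM in wild type (log2 fold change 2.62, SE 0.59, edgeR adjusted p = 0.0188). LDOX, the anthocyanidin synthase, and A3G2XYLT, an anthocyanin xylosyltransferase, had log2 fold changes of 1.75 and 1.69 (adjusted p = 0.0400 and 0.0294). For all 3 genes, as for MYB90, the lowest library labelled naa50-1 was replicate 3 and the lowest wild-type library was replicate 1. The calls are near the threshold: without naa50-1 replicate 1 or wild-type replicate 2 the adjusted p of the 3 genes was 0.0535 to 0.116, and LDOX and A3G2XYLT also missed it without naa50-1 replicate 2 or wild-type replicate 1 (0.0846 to 0.121). Without wild-type replicate 3 the log2 fold changes of DFRA and LDOX were 3.40 and 2.58.

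The glucosinolate MYBs had 0 of 3 tested members past the threshold. MYB28, the main activator of aliphatic glucosinolate synthesis, had 496, 442 and 666 counts in libraries labelled naa50-1, against 652, 1015 and 595 counts in wild type. The ranges overlap (log2 fold change -0.53, SE 0.21, edgeR adjusted p = 0.193). MYB29, its partner, had a log2 fold change of 0.78 (adjusted p = 0.448), and MYB34, of the indole branch, 0.20 (adjusted p = 0.793). Of 14 pathway genes tested 1 was higher: GGP1, a peptidase of the pathway, had 109, 106 and 127 CPM in libraries labelled naa50-1, against 80.9, 57.3 and 88.7 CPM in wild type (log2 fold change 0.59, SE 0.16, edgeR adjusted p = 0.0463). Without any 1 library other than wild-type replicate 3 its adjusted p was 0.0577 to 0.162.

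Many of the MYBs that control phenylpropanoid and wall genes are known targets of miR858, and 10 of the 14 genes with a miR858a site under the scoring above were MYB-domain genes. The sites of MYB13 and MYB83, described above, follow the microRNA (chr1:26773695-26773715, minus strand), with its seed and the Watson-Crick paired bases in capitals.
miR858a: uUUCGUUGucuguucgaccuu
MYB13 site: ctGGaCGAACAGACAACGAAA
MYB83 site: cAGGTaGAACAGACAACGAgA
These sites lie at chr1:1890638-1890658 on the plus strand and chr3:2577626-2577646 on the minus strand, both in coding sequence. Of the 10 members with a site, MYB13, MYB20, MYB63, MYB83, MYB17, MYB6, MYB42 and TT2 were tested and 0 passed. Their median log2 fold change was 0.26, with 6 above and 2 below 0.

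The remaining roles held no gene past the threshold. Of the meristem, boundary and leaf polarity MYBs, 0 of 7 passed. RAX3, one of the RAX genes that start axillary meristems, had 6.01, 5.94 and 5.65 CPM in libraries labelled naa50-1, against 4.45, 3.41 and 3.07 CPM in wild type, ranges that do not overlap (log2 fold change 0.69, SE 0.22, edgeR adjusted p = 0.0934). Its relative RAX1 had a log2 fold change of the other sign, -1.21, on at most 19 counts in any library (adjusted p = 0.115). Of the cell cycle and stomatal lineage MYBs, 0 of 5 passed. MYB3R4, which activates genes of cell division, averaged 43.3 ± 4.24 CPM in libraries labelled naa50-1 and 36.1 ± 4.46 CPM in wild type (edgeR adjusted p = 0.275).

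Of the trichome and root hair MYBs, 0 of 4 passed. GL1, which starts leaf hairs, had 10, 20 and 12 counts in libraries labelled naa50-1 against 4, 5 and 8 counts in wild type (log2 fold change 1.24, edgeR adjusted p = 0.196). Of the female gametophyte and seed MYBs, 0 of 2 passed. MYB56, a regulator of seed size, had a log2 fold change of -0.34 (adjusted p = 0.413). KUA1, which promotes leaf cell expansion, had one of -0.20 (edgeR adjusted p = 0.401). It was 1 of 2 tested members matched by name from the RADIALIS-like and DIVARICATA-like list, of which 0 passed. DRIF1, MYBS1 and MYBS2 of that list matched no gene by name. Members that carry only a locus number are not in it, so these 2 do not speak for the whole family.

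Of the telomere-binding members matched by name 0 of 5 passed, with log2 fold changes from -0.07 to 0.17. TRB4 and TRB5 of that list matched no gene by name, so members that carry only a locus number can be missing from these 5. TRB3, a telomere repeat binding protein, averaged 31.6 ± 5.01 CPM in libraries labelled naa50-1 and 28.1 ± 2.33 CPM in wild type (edgeR adjusted p = 0.579). Of the 21 tested genes of these role lists that stand outside the family field, 0 were higher and 1 was lower. That gene, named after its values were seen, was TRP5 (AT1G07540), listed among the telomere repeat binding proteins. It had 5, 5 and 13 counts in libraries labelled naa50-1, against 144, 281 and 194 counts in wild type (log2 fold change -4.76, SE 0.41, edgeR adjusted p = 4.53e-05). The wild-type counts are all above the highest count in libraries labelled naa50-1.

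**Figure D5:**
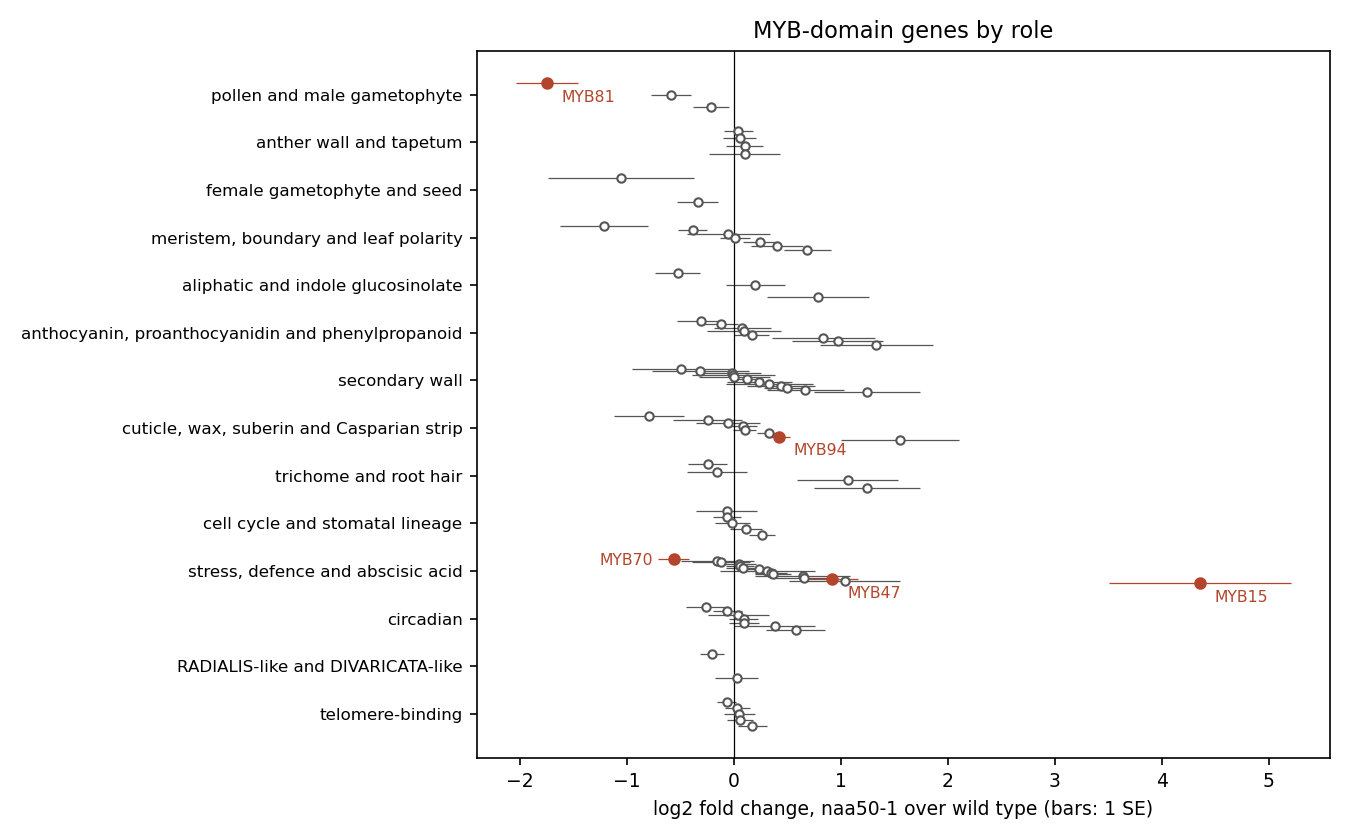
Fitted log2 fold change, naa50-1 over wild type, with bars of 1 SE, for each tested MYB-domain gene of the 14 role lists. Filled points are genes past the threshold. In 11 of the 14 lists no gene passed.

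Of the 61 tested members in no role list, 0 were higher and 2 were lower. One was BOA, and the other was AT5G56840 (chr5:22980638-22982425, plus strand), which has no name in the count table. AT5G56840 had 2.50, 2.92 and 3.26 CPM in libraries labelled naa50-1, against 8.25, 7.5 and 10.6 CPM in wild type. The ranges are well apart, and it was 3.03-fold lower (log2 fold change -1.60, SE 0.22, edgeR adjusted p = 0.000924). It had the smallest adjusted p of all members, passed under all 13 alternatives, and overlaps no other gene.

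The authors' deposited table of their own comparison gave a similar set. Of the 175 members with an adjusted p there, 8 passed 0.05, against 9.31% of all genes in that table. The 8 are the 7 genes above and AT2G40260. In the authors' deposited table AT2G40260 has a log2 fold change of 0.72 and an adjusted p of 0.0340. In the edgeR fit it had 7.56, 6.13 and 8.37 CPM in libraries labelled naa50-1, against 4.60, 3.90 and 4.96 CPM in wild type (log2 fold change 0.71, SE 0.20, adjusted p = 0.0617).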

How the data were processed

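Closed buds of plants labelled naa50-1 and wild type were compared, with 3 biological replicates each. Per the submitters' processing notes, alignment used HISAT2 2.0.5 and the TAIR10 genome. Not given in the sources used here are the counting tool, its strand setting and the release of the annotation. The authors deposited whole-number counts per gene and FPKM values, and, per the file headers, a comparison table with mean normalized signal per genotype, log2 fold changes and p-values.

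The counts were tested with edgeR 4.0.16 in R 4.3.3 (TMM scaling, filterByExpr, quasi-likelihood test, genotype only, Benjamini-Hochberg adjustment over all 21196 genes tested, threshold 0.05). CPM values are TMM scaled. A filter on low counts set which members were tested, so counts over tested members do not speak for the others. The test was checked on simulated counts for 21000 genes, where 21 of 148 calls were false. That is a larger share than the 0.05 at which the adjusted threshold is set. How far it carries over to calls near the threshold in these data was not tested. Alternatives were DESeq2 1.42.0, its size factors, scaling by totals, no filter, limma 3.58.1 on log2(FPKM + 1) and log2(FPKM + 0.1), a replicate block, and each library left out. Replicates differed by more than counting noise in every pair (chi-square per degree of freedom 12.8 to 28.0). Intervals and p-values rest on 3 replicates a genotype.

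Members, role lists, pathway lists and markers were chosen with earlier results of these data known. Of 265 listed names, 17 were given no gene, because no name matched or because the match was another gene. Members that go by another name can thus be missing from the lists, and counts per list cover matched names only. Named are members past the threshold, the member with the smallest p of each role list without such a gene, the 6 members of highest FPKM and up to 3 genes past the threshold per pathway list. Close relatives of these genes were added. Sequences and exons come from the RefSeq TAIR10.1 assembly, which has the deposited gene bounds for 189 of 189 members with a reference transcript.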

Additional observations from a re-analysis of the deposited data

How the results depend on the processing

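MYB15, BOA, MYB81 and AT5G56840 passed the threshold under all 13 alternatives, and MYB47, MYB70 and MYB94 under 6 or 7 of them. The count of 7 MYB-domain genes was 7 with DESeq2 size factors, with scaling by totals and without the filter, 8 with DESeq2, and 6 or 7 with limma on FPKM. Leaving out 1 library gave 4 to 7 genes, with 1 to 3 higher and 3 or 4 lower. Without wild-type replicate 1 the count was 4, and without naa50-1 replicate 2, naa50-1 replicate 3 or wild-type replicate 1 only 1 gene was higher. With the replicate number as a block 4 genes passed, 1 of them higher, and the count over all genes was 1969, against 2021 without the block. Under the block MYB94, MYB47 and MYB70 missed the threshold (adjusted p = 0.0528, 0.0621 and 0.0725), as did DFRA, A3G2XYLT and LDOX (0.0600, 0.0680 and 0.0694). The same-numbered libraries of the genotypes correlated by -0.000211, 0.0585 and 0.102 in their deviations from the group means. Libraries of unlike number correlated by -0.154 to 0.0784. The deviations are taken from means of only 3 libraries, so these values cannot settle whether the numbers pair samples. The main fit used genotype only. Over all genes the count was 1645 to 1926 with a library left out and 1902 to 2474 under the others. MYB101, MYB107, RVE2, MYB59 and AT2G40260 each passed under 1 alternative. On the log2(FPKM + 1) scale, which understates changes of low genes, the log2 fold changes of MYB15, BOA and MYB81 were 1.63, -1.20 and -0.96. CCA1 changed sign without naa50-1 replicate 1 but passed under none. The cause of these shifts was not tested. No scaling moved the median of all genes by 0.1 on the log2 scale. The 3 replicates limit what small changes could be called.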

Other observations

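The spread between replicates differed widely among the MYB-domain genes. Over the 115 members with at least 50 counts on average, the median coefficient of variation of the CPM was 12.5% in libraries labelled naa50-1 and 12.9% in wild type. ASG4, a single-repeat MYB gene, was the most variable of them in libraries labelled naa50-1. No role list holds it under this name, but lists were matched by name only, so it can belong to 1 under another name. It had 7.76, 1.79 and 3.26 CPM there, against 1.95, 4.77 and 2.61 CPM in wild type. Its highest libraries are the same as those of CCA1, naa50-1 replicate 1 and wild-type replicate 2.

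In wild type the most variable of these 115 was MYB103, a secondary wall regulator, with 2.76, 3.16 and 3.21 CPM in libraries labelled naa50-1, against 1.25, 5.80 and 4.30 CPM in wild type. MYB99 and MYB46 followed in the order of wild-type spread after MYB90, with coefficients of variation of 17.4% and 5.90% in libraries labelled naa50-1 and of 49.8% and 47.6% in wild type. No difference in spread between the genotypes was tested.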
